A study of Mus musculus with 6 samples.

Results

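The genes described here are 40 mitosis and spindle genes, chosen by name from a fixed list of factors that carry a cell through mitosis. All 40 were found by Entrez number among the 15295 genes of the deposited count table, and all 40 were among the 14498 genes that passed the filter on low counts. They were measured by bulk poly-A RNA sequencing in 6 libraries. These came from tumours that the labels call xenografts of NA13, a murine bladder tumour line (strain C57BL/6). Tumours of the 3 control libraries carried a scrambled shRNA. Those of the other 3 carried an shRNA against Ddr2, a collagen-binding receptor tyrosine kinase. All of these tumours received IgG. The comparison asks which genes differ in whole tumours between these shRNAs. Age, sex and time point are not stated. The labels do not tie the replicates to different animals, and the p-values then reflect only variation among these libraries, some of which may be technical. A whole tumour mixes tumour and host cells, so fewer dividing cells and less mitotic RNA per dividing cell cannot be told apart.

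Mitosis begins when the kinase CDK1, bound to A- and B-type cyclins, is activated. Aurora and Polo-like kinases, kinesin motors and microtubule-bundling proteins then build the spindle, kinetochores attach chromosomes to it, and the spindle checkpoint holds back the anaphase-promoting complex until every chromosome is attached. The mRNAs of many, though not all, of these factors are made late in the cell cycle and are scarce in resting cells. In a tumour, such mRNAs are widely used as a measure of how many cells are dividing. Many promoters of such genes carry CCAAT boxes, bound by NF-Y, and a cell cycle homology region (CHR), to which the DREAM and MYB-MuvB complexes bind.

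Because the 40 genes share a known kind of promoter, the 250 bases before each RefSeq start (GRCm38.p6) were searched on both strands for the letters CCAAT and TTTGAA, the core of a CHR. The sequence table matched 33 of the 40 genes, with 36 starts. CCAAT was present before 75% of these starts, against 33.8% of the 32851 starts in the table and 35.1% of the 14014 starts of tested genes. The letters occurred at least 2 times before 55.6% of the members' starts, 10.1% of all starts and 12.4% of those of tested genes. TTTGAA was present before 38.9% of the members' starts, 16% of all starts and 11.1% of those of tested genes, and both motifs before 33.3%, 5.55% and 4.16%. TTCCCGC, a form of the E2F site, was present before 0 of the 36 starts, 3.82% of all starts and 6.44% of those of tested genes. At such low shares, 0 of 36 starts says little about the members. No test was made of these shares, and a match is a description, not a bound site. The promoters of the 6 genes with the most matches are shown because they let the spacing of the boxes be seen; Ect2 tied with Ccnb2 for the last place and was taken for its smaller p. Capitals mark CCAAT or TTTGAA on either strand (ATTGG and TTCAAA on the printed strand). Each stretch reads 5′ to 3′ along the gene's strand and leaves out bases annotated as exon, and with them 1 TTTGAA of Ube2c, 1 TTTGAA of Cdk1 and 1 CCAAT of Ect2.
Top2a (chr11:99024190-99024439, minus strand): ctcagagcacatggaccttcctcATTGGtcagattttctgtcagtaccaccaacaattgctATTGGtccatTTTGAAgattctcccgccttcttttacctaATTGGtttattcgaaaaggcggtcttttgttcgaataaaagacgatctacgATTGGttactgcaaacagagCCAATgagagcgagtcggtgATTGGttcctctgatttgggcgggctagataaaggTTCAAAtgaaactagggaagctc
Ube2c (chr2:164769679-164769897, plus strand): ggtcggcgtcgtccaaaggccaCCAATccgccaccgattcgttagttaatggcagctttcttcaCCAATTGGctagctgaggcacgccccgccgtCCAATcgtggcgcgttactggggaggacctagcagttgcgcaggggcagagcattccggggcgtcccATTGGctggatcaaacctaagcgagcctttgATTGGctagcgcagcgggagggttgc
Hmmr (chr11:40733438-40733666, minus strand): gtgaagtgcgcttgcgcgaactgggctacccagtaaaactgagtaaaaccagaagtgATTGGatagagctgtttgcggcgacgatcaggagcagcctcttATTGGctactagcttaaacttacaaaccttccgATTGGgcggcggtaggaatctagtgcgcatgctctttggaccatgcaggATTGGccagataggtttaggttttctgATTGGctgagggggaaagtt
Cdk1 (chr10:69352939-69353162, minus strand): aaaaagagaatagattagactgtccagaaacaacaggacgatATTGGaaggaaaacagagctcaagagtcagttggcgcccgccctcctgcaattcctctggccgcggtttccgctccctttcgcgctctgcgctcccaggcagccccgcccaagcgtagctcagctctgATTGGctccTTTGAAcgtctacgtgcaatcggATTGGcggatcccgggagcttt
Mki67 (chr7:135716380-135716629, minus strand): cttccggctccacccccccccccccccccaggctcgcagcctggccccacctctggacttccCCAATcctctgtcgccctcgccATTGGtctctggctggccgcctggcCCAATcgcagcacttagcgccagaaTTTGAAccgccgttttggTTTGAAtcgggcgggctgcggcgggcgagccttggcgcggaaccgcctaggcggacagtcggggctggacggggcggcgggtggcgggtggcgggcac
Ect2 (chr3:27153879-27154025, minus strand): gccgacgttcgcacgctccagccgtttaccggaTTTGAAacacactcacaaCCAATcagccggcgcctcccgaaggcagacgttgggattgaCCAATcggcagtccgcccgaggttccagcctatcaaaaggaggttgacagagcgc
The Top2a and Ube2c promoters each held 6 CCAAT matches. In Ube2c a pair of them overlap as the palindrome CCAATTGG, so they mark 1 stretch. Hmmr held 5 CCAAT matches and 0 of TTTGAA, whereas Cdk1 and Mki67 each held 3 and 2. The median CCAAT match began at position -72.5 from the start and the median TTTGAA match at -84.5. Of the 33 genes, 7 held neither motif in this window.

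**Figure D1:**
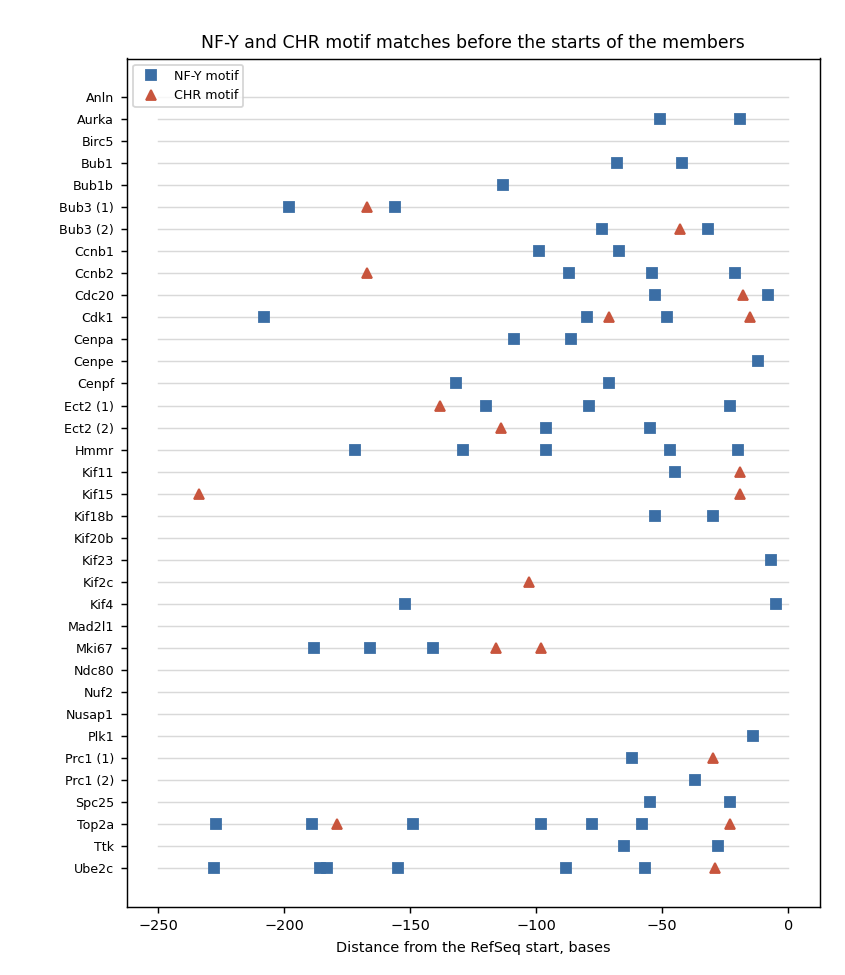
Positions of NF-Y (CCAAT, squares) and CHR (TTTGAA, triangles) motif matches in the 250 bases before each of the 36 RefSeq starts of 33 members, by distance from the start in bases; genes with 2 starts have a line for each. Top2a and Ube2c carry 6 squares each, with those at -186 and -183 in Ube2c overlapping, and lines without a symbol hold neither motif.

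Library totals ranged from 15560571 to 19522985 counts. Ddr2 itself stood at 14.5 ± 7.28 CPM (counts scaled to the library total, after TMM) in the controls and 17.5 ± 11.95 CPM in the shDdr2 libraries (SD, n = 3 per group). By library it was at 6.42, 16.7 and 20.5 CPM in control 1 to 3 and at 4.84, 19.0 and 28.6 CPM in shDdr2 1 to 3. The log2 difference was 0.27 (95% interval -1.27 to 1.81), so whole-tumour RNA did not bear out the labels. That level mixes tumour and host cells, so it does not show whether Ddr2 was lowered in the tumour cells. Directions below are between libraries as labelled. Basal epithelial keratins were abundant in every library, with Krt5 at 4939 to 5954 CPM. Uroplakin transcripts, which mark the luminal urothelium, were scarce, with Upk2 at 2.09 to 4.19 CPM. The libraries of 1 group differed widely, and shDdr2 1 stood apart: it was the highest of the 6 libraries in 32.6% of all tested genes and the lowest in 34.6%.

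The mitosis and spindle genes had slightly higher values in the tumours labelled shDdr2, without any of them passing the test. The fitted log2 fold change, shDdr2 minus control and below also called the log2 difference, was above 0 in 39 of 40 members, where 57.1% of all tested genes were above 0, and its median was 0.225 (0.04 over all tested genes). The edgeR quasi-likelihood test with Benjamini-Hochberg adjustment over all genes called 0 of 40 members, as it called 0% of all 14498 genes, and every member had an adjusted p of 1. No member reached an unadjusted p under 0.05 (0 of 40, against 1.44% of all tested genes, of which those higher in shDdr2 made up 0.993% of all). DESeq2 (0.276% of all genes), limma on voom weights (0% of all genes) and limma on the deposited log2 values (0% of all genes) also called 0 of 40. The 95% interval of the difference included 0 in all 40 members and reached between 0.448 and 1.1 log2 units to either side. The values of the 2 groups did not overlap in 1 member, Kif20a, which was higher in shDdr2; with upper-quartile scaling Kif20a overlapped too, leaving 0. Of all tested genes, 4.32% did not overlap, 2.21% higher and 2.11% lower. Without control 1 the median was 0.135 with 31 of 40 members above 0, and without control 1 and shDdr2 1 together, an alternative chosen after seeing the data, it was 0.055 with 27 of 40 (all tested genes -0.002, 49.7% above 0). In that fit 12 members were below 0 that are above it here, among them Ccnb2 (-0.08), Aurkb (-0.03), Spc25 (-0.025), Cdc20 (-0.11) and Ube2c (-0.055).

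**Figure D2:**
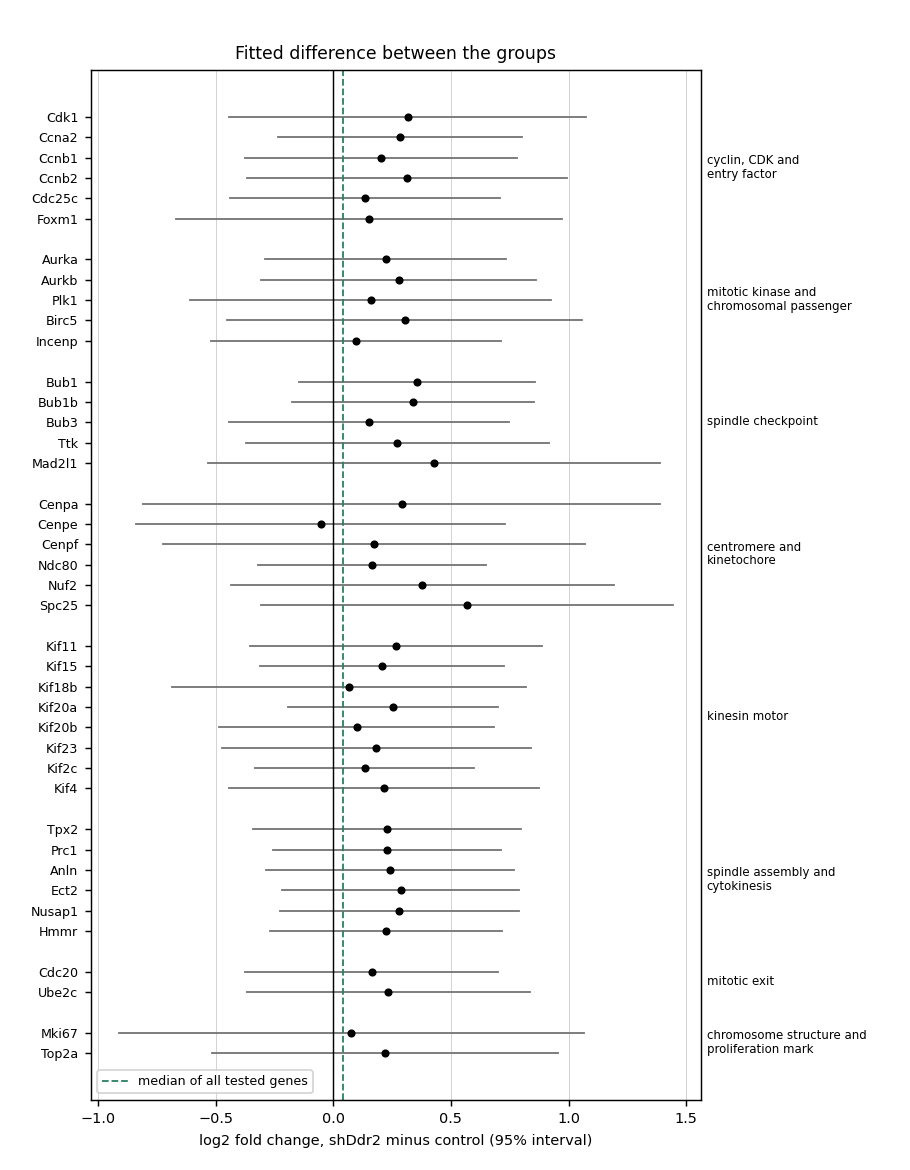
Fitted log2 fold change of each member, shDdr2 minus control (points), with its 95% interval (lines), grouped by role; the solid line is 0 and the dashed line the median of all tested genes (0.04). Points lie to the right of 0 for 39 of 40 genes, and every interval includes 0.

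The summed level of the 40 genes was 2122, 2834 and 2948 CPM in control 1 to 3 and 3245, 3455 and 2544 CPM in the libraries labelled shDdr2 1 to 3. The means were 2635 ± 448 and 3082 ± 477 CPM (SD, n = 3), and shDdr2 3 lay below control 2 and control 3, so the groups overlapped. These genes took from 0.208% of the counts in control 1 to 0.363% in shDdr2 2. Each member was read well: its count ranged from 169 to 10598 over genes and libraries. The highest library was shDdr2 1 or shDdr2 2 in 39 of the 40 genes, and the lowest was control 1 or shDdr2 3 in 33. Over the 6 libraries the highest value was 1.79 times the lowest in the median member (range 1.3 to 3.82), against 2.04 times in the median tested gene.

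**Figure D3:**
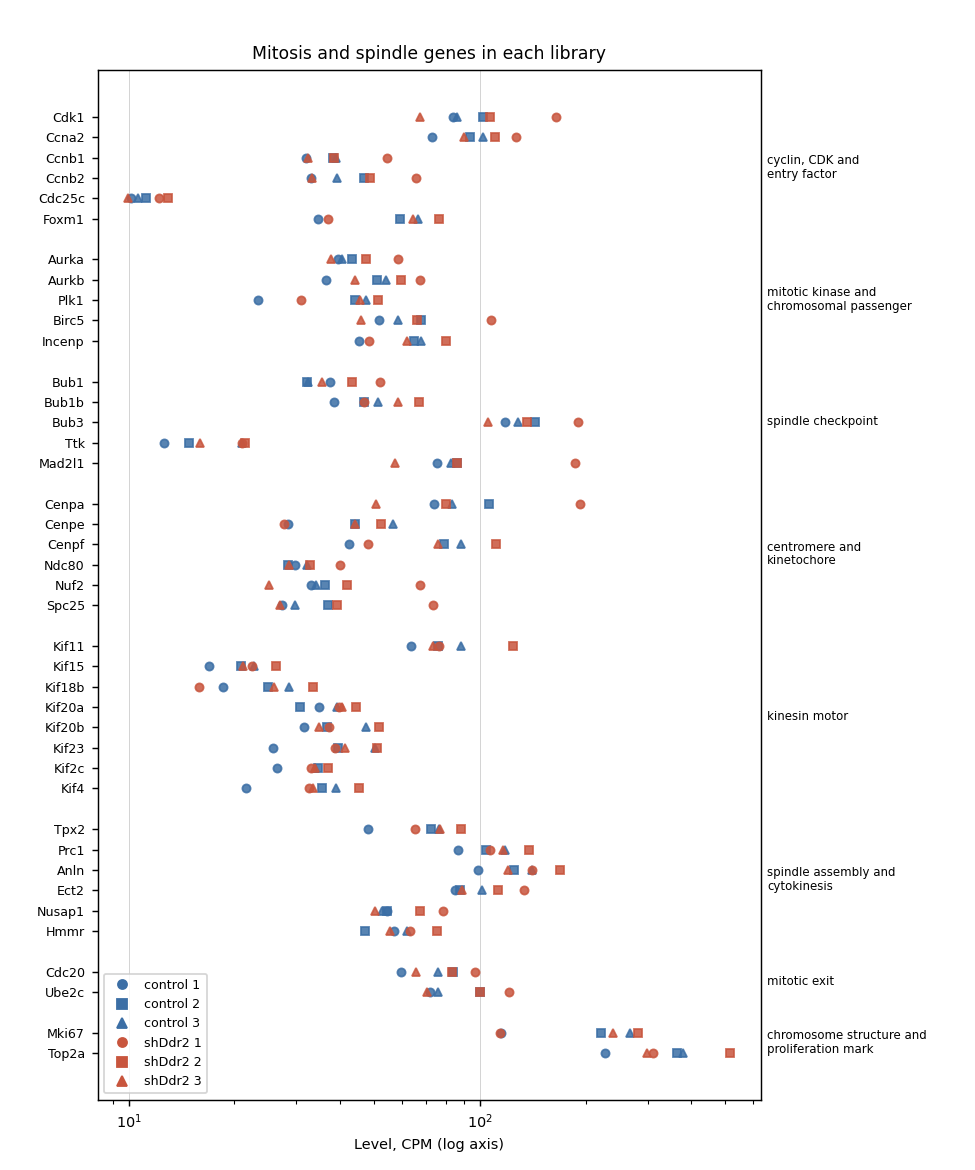
Level of each member in each library in CPM (log axis), grouped by role; blue is control and red shDdr2, and the symbol gives the replicate number. Control 1 (blue circle) is often the leftmost point, and shDdr2 1 (red circle) and shDdr2 2 (red square) the rightmost, while shDdr2 3 (red triangle) lies among or below the controls.

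Levels were compared between genes per kilobase of the transcript with the longest coding sequence (ties by the longest transcript), as mean CPM per kilobase over the 6 libraries. The order depends on this choice. Mad2l1 was divided by 7557 bp with a coding length of 615 bp, and Cdk1 by 4375 bp with 891 bp, so long untranslated ends lowered their levels. The highest levels were those of Ube2c, the ubiquitin-conjugating enzyme of the anaphase-promoting complex (93.1 CPM per kilobase, range 73.2 to 125.1), Birc5 (69.95), Top2a (66.9), Cenpa (66.7) and Bub3 (61.7). The lowest were those of Kif15 (4.48, range 3.48 to 5.42), Cenpe (5.34), Cdc25c (5.75) and Ttk (6.20). Neighbours in this order had overlapping ranges over the libraries in 39 of 39 cases, so only distant members can be ordered. Of the 8 kinesin motors, Kif11 was the highest, at 17.3 CPM per kilobase and rank 20 of 40, and the others held ranks from 29 to 40.

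The cyclins, their kinase and the other factors of mitotic entry all had higher fitted values in shDdr2, 6 of 6, with a median of 0.243. Cdk1, the kinase that triggers mitosis (chromosome 10, 69335146 to 69352938, minus strand, GRCm38), was at 83.8, 102 and 86.1 CPM in control 1 to 3 and at 164, 107 and 67.6 CPM in shDdr2 1 to 3. Its highest and its lowest library were thus both labelled shDdr2. The log2 fold change was 0.32 (SE 0.32, 95% interval -0.44 to 1.075), but -0.05 without shDdr2 1. Ccna2, which encodes cyclin A2 (chromosome 3, 36564865 to 36572150), was at 73.1, 93.6 and 102 CPM in controls and 127, 110 and 90.2 CPM in shDdr2, a log2 difference of 0.28 (SE 0.22), or 0.16 without shDdr2 1 and 0.02 without both libraries numbered 1. The groups overlapped through shDdr2 3 and the upper controls. The B-type cyclin Ccnb1 (chromosome 13, 100778650 to 100786570) was at 32.0, 38.1 and 38.9 CPM and 54.5, 38.4 and 32.4 CPM, and Ccnb2 (chromosome 9, 70407692 to 70421547) at 33.0, 46.7 and 39.3 CPM and 65.9, 48.8 and 33.2 CPM. Both were highest in shDdr2 1 and near the lowest control in shDdr2 3. Their log2 fold changes were 0.20 (SE 0.25) and 0.31 (SE 0.29). Without shDdr2 1 that of Ccnb1 was -0.03. Cdc25c, a phosphatase that activates CDK1, was the member with the fewest CPM, not corrected for length, at 9.93 to 12.96. Foxm1, a transcription factor of late cell cycle genes (chromosome 6, 128362967 to 128376146), had another pattern, at 34.6, 59.2 and 66.4 CPM in controls and 36.8, 76.6 and 64.3 CPM in shDdr2. The libraries numbered 1 were low in both groups, and its difference of 0.15 (SE 0.35) was -0.075 without control 1 and -0.08 without shDdr2 2.

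Mitotic kinases and chromosomal passenger genes were above 0 in 5 of 5 cases, with a median of 0.222. Aurka, the spindle pole Aurora kinase (chromosome 2, 172356190 to 172370535), was at 39.5, 43.1 and 40.4 CPM in controls and at 58.6, 47.4 and 37.6 CPM in shDdr2, a log2 difference of 0.22 (SE 0.22) that was 0.05 without shDdr2 1. Aurkb, the Aurora kinase of the chromosomal passenger complex (chromosome 11, 69045647 to 69051664), was at 36.5, 50.8 and 53.9 CPM and 67.6, 59.6 and 44.0 CPM, a log2 difference of 0.28 (SE 0.25). In both genes shDdr2 1 and 2 lay above every control and shDdr2 3 did not. The survivin gene Birc5, another passenger subunit, was at 51.7, 67.9 and 58.3 CPM and 107, 66.4 and 45.8 CPM. Only shDdr2 1 exceeded the controls there, and the difference of 0.30 (SE 0.32) was -0.08 without it. Plk1, the Polo-like kinase (chromosome 7, 122159439 to 122169873), was at 23.4, 44.0 and 47.3 CPM and 30.9, 51.4 and 45.6 CPM, a log2 difference of 0.16 (SE 0.33) that was -0.09 without control 1. Incenp, the scaffold of the passenger complex, differed by 0.10 (SE 0.26), by -0.055 without control 1 and by -0.10 without shDdr2 2. Plk1 and Incenp were, like Foxm1, low in both libraries numbered 1.

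Spindle checkpoint genes had the highest median of the 8 roles, 0.337, with 5 of 5 above 0. Bub1, a checkpoint kinase of the kinetochore (chromosome 2, 127801122 to 127831865), was at 37.5, 32.2 and 32.4 CPM in controls and 51.8, 43.4 and 35.4 CPM in shDdr2. Its log2 fold change of 0.355 (SE 0.215) came with the smallest unadjusted edgeR p of the members, 0.141. The groups overlapped only between control 1 and shDdr2 3. Bub1b, which encodes the checkpoint protein BUBR1 (chromosome 2, 118598211 to 118641591), was at 38.4, 46.9 and 51.1 CPM and 46.9, 66.9 and 58.4 CPM, a log2 difference of 0.34 (SE 0.22). Here shDdr2 1 was the lowest of its group. Mad2l1, the checkpoint protein that binds CDC20, was at 75.6, 86.2 and 83.0 CPM and 186, 86.1 and 57.2 CPM, so that 1 library was far above the rest. Its difference of 0.43 (SE 0.41) was -0.185 without shDdr2 1. That of Bub3, an adaptor for BUB1 and BUBR1, was 0.15 (SE 0.25) and -0.10 without shDdr2 1. Ttk, the MPS1 kinase at the top of the checkpoint, was at 12.6, 14.8 and 21.0 CPM and 21.0, 21.4 and 16.0 CPM, a log2 difference of 0.27 (SE 0.275).

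Centromere and kinetochore genes held both the largest and the only negative difference, with 5 of 6 above 0 and a median of 0.231. Spc25, a subunit of the NDC80 complex that holds microtubules (chromosome 2, 69193895 to 69206194), was at 27.3, 37.0 and 29.7 CPM in controls and 73.5, 39.1 and 26.9 CPM in shDdr2, a log2 difference of 0.57 (SE 0.37). Nuf2, of the same complex (chromosome 1, 169497934 to 169531464), was at 33.1, 36.3 and 34.1 CPM and 67.6, 41.8 and 25.1 CPM, a log2 difference of 0.38 (SE 0.35) that was -0.04 without shDdr2 1. Both spread from the highest to the lowest value within shDdr2. Ndc80 itself varied less, between 28.4 and 40 CPM, with a difference of 0.165 (SE 0.21), or 0.03 without shDdr2 1. Cenpa, the centromeric histone H3 variant (chromosome 5, 30666777 to 30674830), was at 74.2, 106 and 83.4 CPM and 193, 79.9 and 50.5 CPM. Its difference of 0.29 (SE 0.47) turned to -0.43 without shDdr2 1. Cenpe, the kinetochore kinesin (chromosome 3, 135212537 to 135273611), was at 28.5, 44.2 and 56.4 CPM and 27.7, 52.3 and 44.2 CPM. Its difference was -0.05 (SE 0.33), but 0.17 without shDdr2 1 and 0.19 without control 3. Cenpf, a large kinetochore protein, was at 42.3, 78.8 and 88.1 CPM and 48.1, 111 and 76.1 CPM, a difference of 0.17 (SE 0.38) that was -0.08 without control 1 and -0.17 without shDdr2 2.

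Kinesin motors, which move along microtubules to separate poles, move chromosomes and set up cytokinesis, were above 0 in 8 of 8 cases, with a median of 0.196. Kif20a, a kinesin of the central spindle, was at 34.7, 30.8 and 39.2 CPM in controls and 39.8, 44.4 and 40.6 CPM in shDdr2. Its 3 shDdr2 libraries all exceeded the controls, by a narrow margin over control 3. The log2 fold change was 0.25 (SE 0.19, unadjusted edgeR p = 0.225), and the exact two-sided permutation p on log2 values was 0.1, the smallest possible with 3 against 3. Kif11, the motor that pushes the poles apart (chromosome 19, 37376403 to 37421859), was at 63.6, 76.0 and 88.1 CPM and 76.5, 124 and 73.5 CPM, a log2 difference of 0.27 (SE 0.265) that rested on shDdr2 2 and was -0.02 without it. Kif18b, which limits astral microtubules, was lowest in shDdr2 1 at 15.8 CPM and highest in shDdr2 2 at 33.5 CPM, with a difference of 0.07 (SE 0.32), of -0.08 without control 1 and of -0.20 without shDdr2 2. Kif20b and Kif23, motors of cytokinesis, differed by 0.10 (SE 0.25) and 0.18 (SE 0.28). Without control 1 they were at -0.015 and -0.03, and Kif20b was at -0.10 without shDdr2 2. The microtubule depolymerase Kif2c, the chromokinesin Kif4 and the spindle motor Kif15 differed by 0.13, 0.215 and 0.21, and by 0.03, 0.007 and 0.11 without control 1.

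Spindle assembly and cytokinesis genes lay close together, with differences between 0.223 and 0.287 in 6 of 6 genes and a median of 0.234. Ect2, the exchange factor that activates RHOA at the cleavage furrow (chromosome 3, 27097222 to 27153878), was at 85, 87.8 and 102 CPM in controls and 134, 113 and 88.6 CPM in shDdr2, a log2 difference of 0.29 (SE 0.22). Nusap1, a spindle-associated microtubule binder (chromosome 2, 119618298 to 119651244), was nearly level over the controls at 54.5, 54.4 and 52.6 CPM and spread to 78.6, 67.3 and 50.2 CPM in shDdr2, a log2 difference of 0.28 (SE 0.22). In both, the overlap came from shDdr2 3. Tpx2, which activates AURKA on the spindle, Prc1, which bundles its midzone, Anln, which scaffolds the contractile ring, and Hmmr, a spindle pole protein, differed by 0.23, 0.23, 0.24 and 0.22, with within-group SDs of 0.21 to 0.30 log2 units. None of the 6 changed direction when a single library was left out, though Tpx2 was at 0.06 without control 1.

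The factors of mitotic exit were above 0 in 2 of 2 cases. Cdc20, the activator of the anaphase-promoting complex (chromosome 4, 118432901 to 118437352), was at 59.6, 84.0 and 75.9 CPM in controls and 96.6, 83.2 and 65.7 CPM in shDdr2, a log2 difference of 0.16 (SE 0.23). Ube2c (chromosome 2, 164769898 to 164778822) was at 72.2, 100 and 76.2 CPM and 121, 100.1 and 70.8 CPM, a log2 difference of 0.23 (SE 0.26). In both genes shDdr2 1 was the highest of the 6 libraries.

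Top2a and Mki67, the most abundant members in CPM, followed another order of libraries. Top2a, the topoisomerase that untangles chromosomes (chromosome 11, 98992943 to 99024189), was at 227, 364 and 378 CPM in controls and at 310, 516 and 299.6 CPM in shDdr2, a log2 difference of 0.22 (SE 0.31) that was -0.08 without shDdr2 2. Mki67, whose product is the proliferation antigen Ki-67 (chromosome 7, 135689784 to 135716361), was at 115, 221 and 267 CPM and 114, 282 and 239 CPM, a log2 difference of 0.08 (SE 0.42). Its value in shDdr2 1 was the lowest of all, at the level of control 1, whereas Cdk1, Cenpa and Birc5 were highest there. The Mki67 difference was -0.20 without control 1, -0.19 without shDdr2 2 and -0.02 without shDdr2 3.

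The libraries therefore ranked differently in different members. Taking each gene's log2 CPM minus its mean over the 6 libraries, the median member was at -0.353, 0.003 and 0.052 in control 1 to 3 and at 0.118, 0.222 and -0.138 in shDdr2 1 to 3, while the median of all tested genes stayed between -0.035 and 0.005. Control 1 was the lowest library in 22 of 40 members (14.4% of all tested genes), shDdr2 3 in 11 (22.1%), control 2 in 4 (9.66%) and shDdr2 1 in 3 (34.6%), and control 3 and shDdr2 2 in 0 (8.96% and 10.4%). The highest was shDdr2 2 in 21 of 40 (13%), shDdr2 1 in 18 (32.6%) and control 3 in 1 (8.97%). It was control 1, control 2 or shDdr2 3 in 0 members (14.5%, 10.6% and 20.3%). Between libraries with the same replicate number, 37 of 40 members were higher in shDdr2 for number 1 (median difference 0.488, with 49.6% of all tested genes higher), 35 of 40 for number 2 (0.292, 48.7%) and 5 of 40 for number 3 (-0.187, 49.8%). These differences have 1 library on each side and no replicate check.

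Within shDdr2 1 the members split by the length of their coding sequence. There, 25 members lay above their own mean, with a median coding length of 1290 bp, and 15 at or below it, with a median of 3156 bp. Cenpa (402 bp), Mad2l1 (615 bp) and Spc25 (678 bp) stood at 1.10, 1.06 and 1.00 log2 units above their means, and Mki67 (9531 bp), Kif18b (2502 bp) and Cenpe (7413 bp) at -0.76, -0.57 and -0.55. The same slope ran through all tested genes with a coding length (13163 genes): in 4 classes of about equal size by coding length, the median deviation in shDdr2 1 was 0.44, 0.101, -0.14 and -0.509 from the shortest class to the longest. As a description across genes, which share the library and are not replicates, Spearman's rho of deviation with coding length in shDdr2 1 was -0.768 over the 40 members and -0.534 over all these genes. It had the opposite sign in shDdr2 2 (0.768 and 0.405), shDdr2 3 (0.691 and 0.482) and control 3 (0.706 and 0.402), and was weaker in control 1 (-0.387 and -0.138). Since each deviation is taken from the gene's mean over the 6 libraries, a slope in shDdr2 1 by itself pushes the other libraries the opposite way. The opposite signs are thus partly fixed by the centring. The members lay above the slope in shDdr2 1, where those in the longest class had a median of -0.085, and below it in control 1, where members of that class had -0.409 against -0.074 for all genes.

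**Figure D4:**
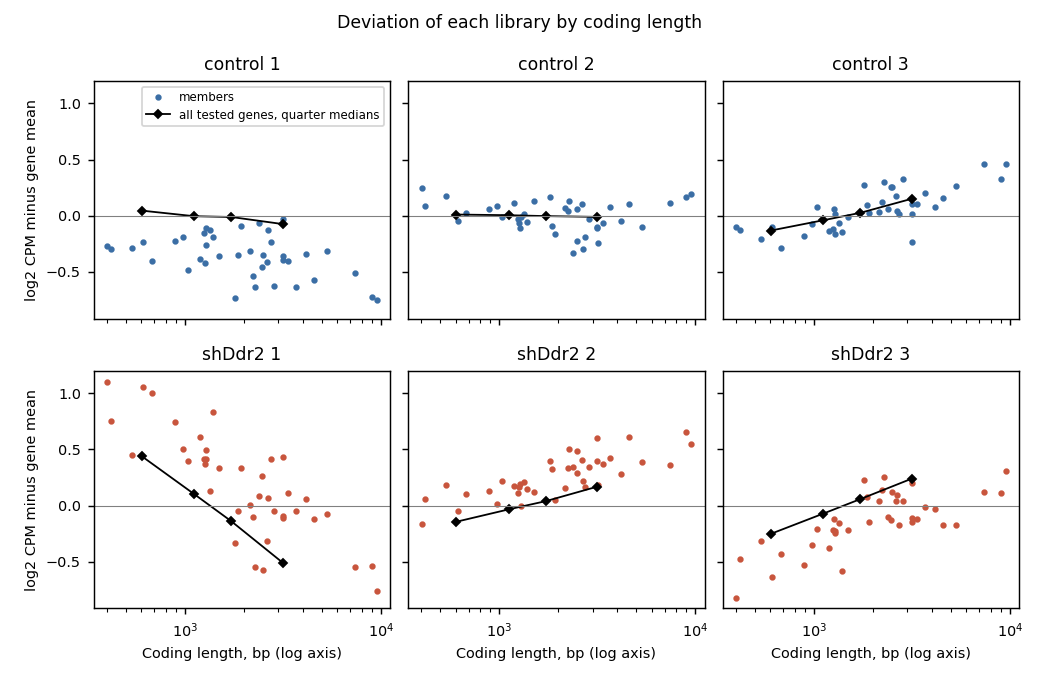
Deviation of each member (points) from its own mean over the 6 libraries, in log2 CPM, against its coding length in bp (log axis), with 1 panel per library; black diamonds are medians of all tested genes in 4 classes of coding length. The diamonds fall from 0.44 to -0.509 in shDdr2 1 and climb in control 3, shDdr2 2 and shDdr2 3, and the points of control 1 lie below the diamonds.

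When this slope was removed in each library, an alternative chosen after seeing the data, the long members of shDdr2 1 moved up. The median member was then at -0.305, -0.021 and -0.024 in control 1 to 3 and at 0.405, 0.178 and -0.276 in shDdr2 1 to 3. Mki67 in shDdr2 1 moved from -0.76 to 0.21 and Top2a from -0.12 to 0.53. The highest library was then shDdr2 1 in 29 of 40 members and shDdr2 2 in 10, and the lowest control 1 in 19 and shDdr2 3 in 18. For these counts no share over all genes was taken after the correction. The difference between the groups hardly moved, with 39 of 40 members above 0 (53.1% of all genes in that fit) and a median of 0.241. In that fit edgeR called 0 of 40 members and 0 of all 13163 genes. The members of number 1 were all higher in shDdr2 (40 of 40, with 50.9% of all genes higher). Those of number 2 were higher in 35 cases (48.3%) and those of number 3 in 3 (45.2%), again with 1 library on each side.

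**Figure D5:**
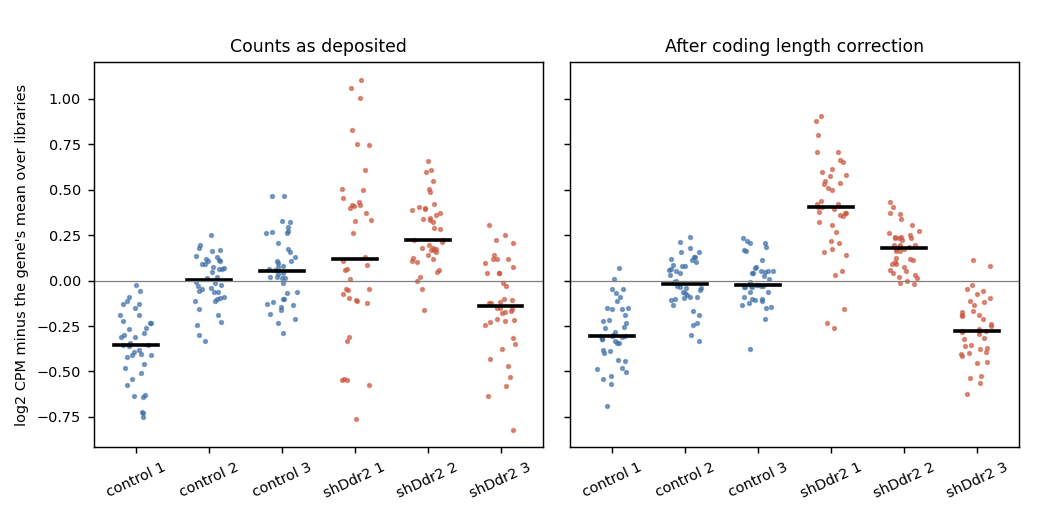
Each of the 40 members as log2 CPM minus its mean over libraries (points; horizontal jitter only) with the median member (bar), for the counts as deposited (left) and after the coding length correction (right). After correction the bars stand at 0.405 in shDdr2 1 and 0.178 in shDdr2 2, near 0 in control 2 and 3, and at -0.305 and -0.276 in control 1 and shDdr2 3.

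Markers of other cell types varied over the same libraries. The summed level of 7 fibroblast genes, all 7 tested, was 2327, 4087 and 4992 CPM in control 1 to 3 and 1198, 3557 and 9878 CPM in shDdr2 1 to 3, and that of 6 endothelial genes was 110, 192 and 198 CPM and 67.8, 167 and 329 CPM. The library with the lowest fibroblast sum, shDdr2 1, had high mitotic values and that with the highest, shDdr2 3, low ones. Most of this sum came from Col1a1, Col1a2 and Col3a1, with coding lengths of 4116 to 4392 bp, in the longest class, which was low in shDdr2 1. The shorter Dcn (1062 bp) was at 103 CPM in shDdr2 1 and 105 CPM in control 1, and Lum (1014 bp) at 8.45 and 21.4 CPM. The sum was not corrected for coding length. Control 1 joined little fibroblast signal to the lowest mitotic values. Leukocyte genes (5 of 5 tested) summed to 180 to 319 CPM, with 192 and 180 CPM in control 1 and shDdr2 1 and 240 to 319 CPM in the others. Erythrocyte genes (4 of 5 tested) summed to 596 CPM in control 1 and 25.1 to 62.6 CPM elsewhere, and skeletal muscle genes (7 of 7) to 8.09 to 83.0 CPM in controls and 363 to 2763 CPM in shDdr2. All 7 muscle genes were higher in shDdr2 without overlap (2.21% of all tested genes), with a median log2 difference of 4.76. DESeq2 called 3 of the 7 (0.276% of all genes) and edgeR 0 (0% of all genes). Cornified epidermis genes (6 of 6) summed to 1938 CPM in shDdr2 1 and 417 to 618 CPM elsewhere. Most of the sum in shDdr2 1 was Krt10 and Krt1, at 1401 and 395.7 CPM. Lor and Kprp were also highest there, whereas Flg was at its lowest (45.3 CPM). Ivl, at 58.8 CPM in shDdr2 1, was higher in control 1 (103.6 CPM) and shDdr2 3 (92.1 CPM). Epithelial genes (10 of 11 tested) summed to 11200 to 13110 CPM, most of it Krt5 and Krt14. Of the 10, 7 had lower fitted values in shDdr2 (median -0.30), while Krt5, Trp63 and Upk2 were at 0.025, 0.08 and 0.15. Epcam, Krt8 and Krt18 were lower in shDdr2 without overlap, as were 2.11% of all tested genes. For Krt18 the margin was narrow, with 72.05 CPM in shDdr2 2 and 72.35 CPM in control 3. In shDdr2 1 the median epithelial gene was at -0.56 from its mean, with Krt7 at 49.9 CPM (635 in control 1) and Krt19 at 49.75 CPM (617 in control 1). Neutrophil genes (5 of 6 tested) summed to 90.5, 71.2 and 67.4 CPM in controls and 37.8, 29.5 and 64.9 CPM in shDdr2. Adipocyte genes (3 of 5) summed to 20.4, 37.2 and 31.2 CPM and 52.7, 43.1 and 45.4 CPM. The neutrophil and adipocyte sums thus separated the groups, as the skeletal muscle sum did. Among the neutrophil genes, S100a8 and S100a9 were lower without overlap, while Retnlg, Csf3r and Cxcr2 overlapped, with log2 differences of -1.18, -0.08 and 0.14. Of the adipocyte genes, Adipoq and Plin1 were not tested, and Fabp4, Cfd and Car3 each overlapped. Car3 was highest in shDdr2 2, as the skeletal muscle sum was. A change in neutrophils or adipocytes cannot be read from their sums. T and NK cell genes (6 of 7) summed to 4.04 to 32.6 CPM and 7.22 to 28.0 CPM, and B and plasma cell genes (3 of 6) to 1.46 to 59.96 CPM and 11.6 to 108 CPM, with overlap. Igkc alone was at 104.9 CPM in shDdr2 2. Macrophage genes (7 of 7) summed to 525, 768 and 693 CPM in controls and 602, 800.5 and 918 CPM in shDdr2, with overlap. Much of this was Lyz2, at 279.8, 269.5 and 291.2 CPM and 403.6, 380.7 and 458.5 CPM. Only Lyz2 was higher without overlap, as were 2.21% of all tested genes. Of the 7, 3 had higher and 4 lower fitted values in shDdr2 (median -0.03). In shDdr2 1 the median macrophage gene was at -0.66 from its mean. The part of these cell types in the mitotic values was not tested.

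Other cell cycle genes, from 7 lists with 166 genes, all tested, were looked at in the same fit. No gene of these lists passed the edgeR test, with an adjusted p of 1 for each, and 1 of 166 had an unadjusted p under 0.05. The other kinetochore and centromere genes were above 0 in 30 of 33 cases (median 0.173), other spindle and cytokinesis genes in 25 of 30 (0.154), other mitotic regulators in 16 of 20 (0.146), the anaphase-promoting complex in 16 of 19 (0.09) and condensin and cohesin in 15 of 18 (0.064). The G1/S and replication genes were above 0 in 27 of 29 cases with a median of 0.255, beside 0.225 for the mitosis and spindle genes. Cell cycle brakes were above 0 in 8 of 17 cases with a median of -0.04. None of these medians was tested against another. Several turned when libraries were left out: without shDdr2 1 the median was -0.195 for the anaphase-promoting complex and -0.02 for the kinetochore list, and without both libraries numbered 1 it was -0.06 for G1/S, -0.09 for the kinetochore list, -0.19 for the anaphase-promoting complex and -0.02 for the other regulators.

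The gene with the smallest p of each list is given next. Chosen this way, these differences lie further from 0 than is typical of their lists. Mastl, the Greatwall kinase that blocks mitotic phosphatase activity, was at 22.8, 19.7 and 22.6 CPM in controls and 35.1, 30.0 and 27.8 CPM in shDdr2, without overlap, a log2 difference of 0.51 (SE 0.20, 95% interval 0.04 to 0.99). Knl1, the kinetochore scaffold, was at 19.8 ± 3.28 and 25.9 ± 1.28 CPM, Psrc1, a spindle protein, at 9.83 ± 1.84 and 14.03 ± 2.04 CPM, and Cdc6, a replication licensing factor, at 15.9 ± 2.95 and 23.2 ± 4.25 CPM (SD, n = 3 each). These 3 genes also did not overlap between the groups; over the 7 lists 6 of 166 genes did not, beside 4.32% of all tested genes. Anapc1 and Ncaph, subunits of the anaphase-promoting complex and of condensin, differed by 0.28 (SE 0.215) and 0.265 (SE 0.23) with overlap. Cdkn1a, which encodes the CDK inhibitor p21, was at 149, 95.8 and 114 CPM in controls and 97.6, 76.3 and 109 CPM in shDdr2, a log2 difference of -0.345 (SE 0.24). Its highest library was control 1, where the summed mitotic level was lowest, and its lowest was shDdr2 2, while control 2 lay below shDdr2 1. A link of Cdkn1a to the mitotic genes was not tested.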

How the data were processed

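Tools listed by the submitters' processing notes are Bowtie2 2.1.0, RSEM 1.2.31 and limma, with the build GRCm38.p5. Annotation, gene filter and strand setting: not given in the sources used here. The authors deposited whole-number counts per Entrez gene (15295 genes, lowest count 1), which may be rounded estimates. The 17 values of 100000 or more are given with 3 significant digits. A second table that the authors deposited holds log2 values; each equals log2 of 1 plus the count over a library factor, to a tolerance of 0.05 counts, except for those 17 values. Symbols came from RefSeq by Entrez number (14876 matched, 419 did not), and coordinates, coding and transcript lengths from GENCODE M21 on GRCm38.

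Counts were filtered with filterByExpr, scaled by TMM and tested with edgeR 4.0.16 (quasi-likelihood F test, robust) in R 4.3.3. Two-sided p-values were adjusted over all 14498 genes (Benjamini-Hochberg, threshold 0.05). CPM use TMM-scaled totals, and log2 CPM a pseudocount of 0.5. Libraries numbered alike deviated together (r = 0.314, 0.257 and 0.295 over genes, criterion 0.1), though control 3 and shDdr2 2 did too (r = 0.271). By that criterion the numbers from the titles were treated as pairs in an alternative fit. Alternatives were other scalings, filters and tools (DESeq2 1.42.0, limma 3.58.1), the block and leaving out each library; the coding length correction (loess per library) and leaving out both libraries numbered 1 were chosen after seeing the data. All 40 members may be named, with values per library for those of smallest p in each role. The members and lists were chosen with earlier results of these data known. Protein sequences were not used here.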

Additional observations from a re-analysis of the deposited data

How the results depend on the processing

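Under the 9 planned settings of scaling, filter, tool and block, 39 of 40 members stayed above 0, the median log2 fold change lay between 0.19 and 0.235, 0 members were called and none of the 40 changed direction. With the replicate block, which pairs libraries by number, the median was 0.221 and 0 genes were called, and it changed no other call. Upper-quartile scaling gave 0 members without overlap (otherwise 1, Kif20a), and DESeq2 called 40 of all genes against 0 with edgeR; the cause was not tested. The share of all genes above 0 was 50.1% to 59.4% over these settings (57.1% as reported). Leaving out libraries gave 0 calls over all genes and members, 27 to 40 members above 0, a median of 0.055 to 0.328 and 1 to 15 members without overlap. Over all genes 8.14% to 38.8% did not overlap in these runs: 13.5% without shDdr2 3, where 15 members did not, and 38.8% without both libraries numbered 1, where 6 did not. The ranges of log2 fold change over these runs, for the 23 members that changed sign, were -0.121 to 0.579 for Cdk1, -0.128 to 0.354 for Ccnb1, -0.079 to 0.531 for Ccnb2, -0.079 to 0.40 for Foxm1, -0.026 to 0.433 for Aurkb, -0.088 to 0.345 for Plk1, -0.179 to 0.55 for Birc5, -0.102 to 0.259 for Incenp, -0.176 to 0.332 for Bub3, -0.25 to 0.736 for Mad2l1, -0.552 to 0.629 for Cenpa, -0.272 to 0.188 for Cenpe, -0.167 to 0.426 for Cenpf, -0.083 to 0.663 for Nuf2, -0.025 to 0.843 for Spc25, -0.019 to 0.399 for Kif11, -0.20 to 0.31 for Kif18b, -0.096 to 0.272 for Kif20b, -0.026 to 0.424 for Kif23, -0.113 to 0.296 for Cdc20, -0.055 to 0.415 for Ube2c, -0.198 to 0.376 for Mki67 and -0.083 to 0.356 for Top2a. The other 17 stayed above 0, the lowest values being 0.007 for Kif4, 0.008 for Ndc80, 0.015 for Aurka and 0.024 for Ccna2. The 95% interval, 0.598 log2 units to either side in the median member, limits what a difference of this size can show.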
